A study of Mus musculus with 32 samples.

Results

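Genes that handle vitamin A and its product retinoic acid were followed through fat cell differentiation with and without knockdown of Zbtb9. The group has 9 listed genes: Aldh1a1, Aldh1a2, Aldh1a3, Aldh1a7, Rbp4, Stra6, Crabp1, Crabp2 and Rdh10. Members were found by gene symbol in the table of 20560 genes, where 6 of the 9 have a row. Aldh1a2, Rbp4 and Crabp1 were not analysed here. The group was chosen from measured values, because Aldh1a7 was among the largest rises in control cells during differentiation. Changes over time in control cells are therefore described without a test, and comparisons of knockdown with control share those control libraries.

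The cells were 3T3-L1, a mouse preadipocyte line of fibroblast form that fills with lipid under hormone treatment. Each of the 4 time points (days 0, 3, 7 and 11) had 4 libraries of cells with a scramble control short hairpin RNA (shRNA), 2 with shRNA 1 against Zbtb9 and 2 with shRNA 2 against Zbtb9, which makes 32 libraries in 12 groups. In every arm differentiation was started at day 0 with dexamethasone, 3-isobutyl-1-methylxanthine and insulin, and the cells had insulin medium from day 3 and complete medium from day 7. Replicates are labelled biological, and nothing says whether each came from its own infected culture, so p-values measure the spread between these samples.

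Retinol reaches cells bound to the carrier RBP4, and the membrane receptor STRA6 takes it up. RDH10 oxidises retinol to retinal, and ALDH1A1, ALDH1A2 and ALDH1A3 oxidise retinal to retinoic acid, which binds nuclear receptors of the RAR family. Enzyme activity, that of ALDH1A7 included, was not measured here. CRABP1 and CRABP2 carry retinoic acid in the cytosol, CRABP2 towards those receptors. Retinoic acid blocks adipogenesis when given early, and Aldh1a1 is known in fat tissue as a main retinal dehydrogenase.

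Aldh1a1 and Aldh1a7 are neighbours and near copies, so their sequences are shown first, because the results turn on whether reads of the pair can be told apart. In GRCm38, by GENCODE M21, Aldh1a1 (ENSMUSG00000053279) lies at chr19:20492715-20643465 on the plus strand and Aldh1a7 (ENSMUSG00000024747) at chr19:20692953-20727562 on the minus strand, with 49487 bases between them. Each coding sequence has 1503 bases, of which 126 differ, so 91.6% are identical. A stretch of 75 coding bases, from base 22 to base 96 of each, shows a typical density of differences, and its 6 differing bases are in capitals, 5′ to 3′.
Aldh1a1: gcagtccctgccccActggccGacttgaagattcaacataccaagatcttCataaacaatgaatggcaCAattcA
Aldh1a7: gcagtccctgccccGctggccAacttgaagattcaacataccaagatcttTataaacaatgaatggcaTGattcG

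Over the principal transcripts, 7.49% of the 50-base stretches of Aldh1a7 are also in Aldh1a1, 2.51% of the 75-base stretches and 0.0508% of the 100-base stretches. Most reads of those lengths would hold a base that separates the genes. The read length and the handling of reads that fit both genes are not given in the sources used here, so values of the pair carry that uncertainty.

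The region before the start of each gene is also shown, since both genes reached their highest level at day 7. RefSeq (GRCm38.p6) gives Aldh1a7 1 start and Aldh1a1 a proximal and a distal start 109385 bases apart. The 250 bases upstream of the proximal Aldh1a1 start (chr19:20601718-20601967, plus strand) and of the Aldh1a7 start (chr19:20727557-20727806, minus strand) are printed 5′ to 3′ with runs of at least 12 identical bases in capitals.
Aldh1a1, proximal: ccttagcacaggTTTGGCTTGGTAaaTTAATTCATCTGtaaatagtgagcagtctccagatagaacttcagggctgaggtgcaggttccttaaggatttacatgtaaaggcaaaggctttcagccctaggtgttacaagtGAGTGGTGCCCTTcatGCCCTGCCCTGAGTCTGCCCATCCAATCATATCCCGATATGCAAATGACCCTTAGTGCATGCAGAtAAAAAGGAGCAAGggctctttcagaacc
Aldh1a7: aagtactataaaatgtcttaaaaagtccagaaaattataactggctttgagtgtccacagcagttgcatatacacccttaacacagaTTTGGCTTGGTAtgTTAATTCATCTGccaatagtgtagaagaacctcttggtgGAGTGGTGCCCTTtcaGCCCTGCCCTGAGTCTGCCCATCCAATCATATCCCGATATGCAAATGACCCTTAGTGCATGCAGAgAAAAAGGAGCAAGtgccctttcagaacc

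The capitals cover 115 of the 250 bases of each window. The longest shared run is 65 bases and lies from 94 to 30 bases before both starts. The distal Aldh1a1 window shares no run of 12 bases with Aldh1a7. Inside the long run both windows hold ATGCAAAT, the octamer motif, 56 bases before the start, and 1.60% of the 32851 RefSeq windows of this length hold it on either strand. Both also hold CCAAT 72 bases before the start, which 33.8% of windows hold on either strand, and the Aldh1a7 window has another match 137 bases before the start. Neither window has AGGTCA, a nuclear receptor half-site found in 14.0% of windows on either strand, or AGAACA, a glucocorticoid receptor half-site found in 16.1%. These motifs were chosen with the sequences in view, the matches named so far do not overlap each other, and a match is a description of letters, not of binding. TATAAA (12.4% of windows) and ATAAAA (17.0%), which can overlap each other, were also searched. The proximal Aldh1a1 window holds ATAAAA 30 bases before the start, and the nearest match in the Aldh1a7 window is 243 bases before.

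Libraries held from 22280348 to 31073701 reads in genes, as rebuilt from the deposited log2 values. At day 11 the arms did not overlap in depth, with 26486035 to 31073701 reads in control and 22839469 to 25511809 in knockdown libraries. Below, "normalized reads" are these reads scaled by a size factor for each library, and log2 changes come from the deposited values, which are drawn towards each gene's mean and so understate changes of genes with few reads. The targeted gene Zbtb9, for a zinc finger protein with a BTB domain, had 0 to 23 reads per library. Its normalized reads were 14.2 ± 0.594 in control and 8.76 ± 2.83 in knockdown at day 0, 10.3 ± 2.98 and 5.20 ± 3.96 at day 3, 16.8 ± 4.15 and 7.16 ± 2.03 at day 7, and 15.5 ± 4.02 and 8.46 ± 7.65 at day 11 (SD, n = 4 each). Zbtb9 did not reach the filter at day 3. Of the other 3 days, limma called the fall at day 7 (log2 change -0.35, adjusted p 0.0288), and the call was lost without any 1 of 4 single libraries (shRNA 1 replicate 1, shRNA 2 replicate 2, control replicate 2 or control replicate 3), with adjusted p up to 0.0789. By voom on rebuilt reads, a count-based limma fit, that change was -1.20 (adjusted p 0.0123). At day 0 the change was -0.21 (adjusted p 0.271) and at day 11 -0.28 (0.173), which became a call without shRNA 1 replicate 2 (-0.42, adjusted p 0.0323) and in 1 fit of all 32 libraries (0.049). At day 11 shRNA 1 libraries had 8 and 17 reads of Zbtb9 (8.17 and 19.3 normalized) and shRNA 2 libraries 2 and 4 (2.13 and 4.25), beside 22, 13, 21 and 13 reads in control, with log2 changes of -0.08 (adjusted p 0.734) for shRNA 1 and -0.49 (0.0228) for shRNA 2. The difference between the hairpins was not called (-0.42, adjusted p 0.12). The library labelled shRNA 1 replicate 2 of day 11 thus lay inside the control range of the targeted gene, and the arms also overlapped in it at day 3 (0 to 8.99 in knockdown and 6.35 to 12.6 in control libraries). Without that day 11 library, the log2 changes with knockdown at day 11 were -1.32 for Aldh1a1, 1.48 for Aldh1a7 and -0.36 for Rdh10 (limma adjusted p 8.11e-05, 1.61e-05 and 0.0139). Libraries with either hairpin are called knockdown here by their labels. Of the markers of fat cells (8 of 8 in the table), Fabp4 had the highest mean from day 3 on. Lep had at most 5.80 normalized reads in any library. The markers, Pparg, Fabp4 and Adipoq among them, were higher in sum with knockdown at days 3, 7 and 11, and overlapped at day 0. Their summed normalized reads were 1226 to 1454 in control and 1303 to 1438 in knockdown libraries at day 0, 9888 to 11577 and 16980 to 21154 at day 3, 27329 to 30391 and 81303 to 117003 at day 7, and 14427 to 17700 and 48935 to 63502 at day 11. Macrophage (4 of 5 listed genes in the table), endothelial (4 of 4), epithelial (4 of 4), hepatocyte (2 of 3) and hepatic stellate cell (2 of 3) lists summed to at most 639, 48.7, 26.1, 23.3 and 17.1 normalized reads in any library, with Ptprc and Epcam at no more than 3.04 and 3.80. The macrophage sum was 209 to 308 in control and 313 to 639 in knockdown libraries at day 11, with most of it from Cd68. The fibroblast list (7 of 7) summed to 137560 to 379711. It was wholly lower with knockdown at day 0 (299282 to 342411 against 364103 to 379711 in control) and at day 7 (203429 to 234718 against 259277 to 284507), and overlapped at days 3 and 11. The part of cell composition in the results below was not tested, and fewer cells of a type cannot be told apart from less RNA per cell.

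Aldh1a7, the rodent neighbour and paralog of Aldh1a1, went from a few reads to a high peak and most of the way back. In the 4 control libraries it had 7, 5, 14 and 5 reads at day 0, 310, 248, 258 and 356 at day 3, 4530, 4076, 4920 and 4087 at day 7, and 375, 260, 259 and 214 at day 11. In knockdown libraries (shRNA 1 replicates 1 and 2, then shRNA 2 replicates 1 and 2) it had 18, 11, 8 and 5 reads at day 0, 445, 431, 626 and 621 at day 3, 3961, 3855, 3367 and 3809 at day 7, and 815, 540, 740 and 562 at day 11. Scaled for depth, knockdown libraries lay wholly above controls at days 3 and 11, and the arms overlapped at days 0 and 7. In these normalized reads, control cells had 7.06 ± 4.11, 309 ± 54.2, 4522 ± 294 and 248 ± 43.6 at days 0, 3, 7 and 11, and knockdown cells 9.51 ± 5.19, 567 ± 104, 3934 ± 412 and 707 ± 120 (SD, n = 4 each). Control cells at day 7 thus had 641 times their day 0 level, and by day 11 the level was 18.2 times below that of day 7.

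Aldh1a7 was higher in knockdown cells at day 3, by 1.83-fold in normalized reads (log2 change 0.82 ± 0.14 SE, limma adjusted p 0.00125), and at day 11, by 2.85-fold (log2 change 1.42 ± 0.14 SE, adjusted p 2.12e-05). At day 0 the log2 change was 0.11 ± 0.14 (adjusted p 0.71). At day 7 the call was for a small fall, to 87.0% of control (log2 change -0.20 ± 0.07, adjusted p 0.0272). It was called with shRNA 2 (-0.31 ± 0.06, adjusted p 8.49e-05) and not with shRNA 1 (-0.09 ± 0.06, adjusted p 0.212). The call for both together was lost without shRNA 2 replicate 1, shRNA 2 replicate 2, or control replicate 1, 3 or 4 (adjusted p up to 0.0866), without a filter (0.0575), without trend and robust fitting (0.0727), and in 1 fit of all 32 libraries (0.245). The rises at days 3 and 11 came with both hairpins: 0.61 ± 0.11 with shRNA 1 and 1.03 ± 0.11 with shRNA 2 at day 3 (adjusted p 3.24e-05 and 1.05e-08), and 1.45 ± 0.16 and 1.39 ± 0.16 at day 11 (adjusted p 2.73e-05 and 5.79e-05).

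**Figure D1:**
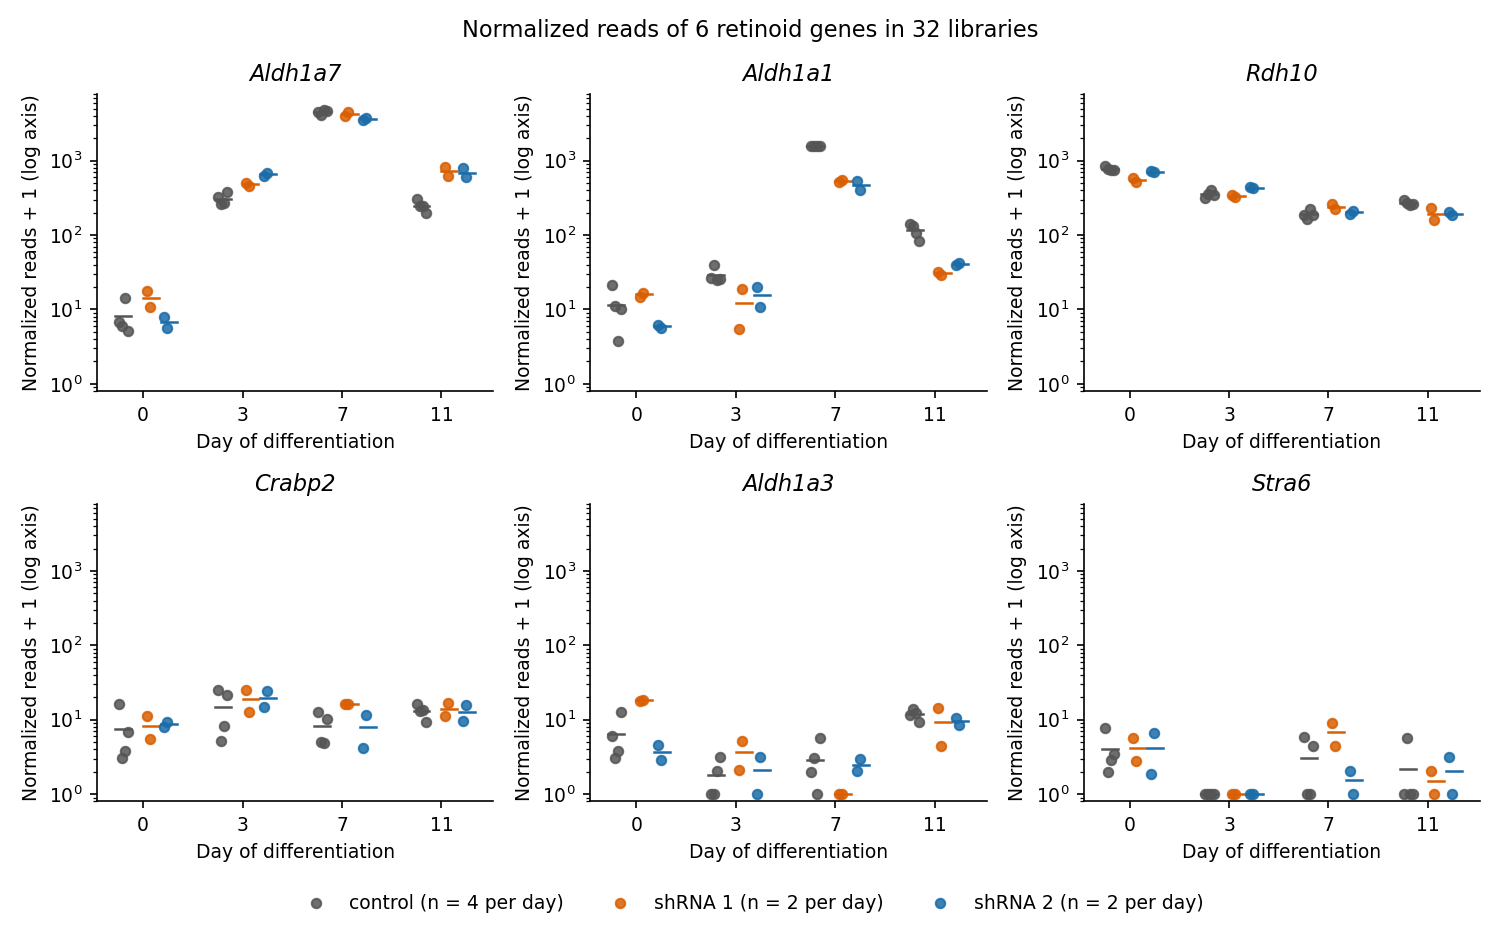
Normalized reads plus 1 (log axis) of the 6 genes with a row in the table, in each of 32 libraries by day of differentiation; points are libraries, bars are group means, grey is control, orange shRNA 1 and blue shRNA 2. Aldh1a7 and Aldh1a1 peak at day 7, where control libraries have 4522 and 1581 normalized reads on average, Rdh10 is highest at day 0, and Crabp2, Aldh1a3 and Stra6 stay low.

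Aldh1a1, a retinal dehydrogenase, also peaked at day 7, and it was lower with knockdown at days 3 and 11, where Aldh1a7 was higher, as well as at day 7. Control libraries had 24, 10, 3 and 11 reads at day 0, 24, 36, 23 and 23 at day 3, 1595, 1545, 1636 and 1385 at day 7, and 174, 142, 113 and 89 at day 11. Knockdown libraries, in the order given above, had 15, 18, 6 and 5 reads at day 0, 4, 17, 19 and 9 at day 3, 502, 476, 502 and 416 at day 7, and 30, 25, 36 and 39 at day 11. At days 3, 7 and 11 every knockdown library lay below every control, and at day 0 the arms overlapped. Normalized reads were 10.6 ± 7.19, 28.0 ± 6.76, 1581 ± 15.5 and 116 ± 26.6 in control and 9.93 ± 5.81, 12.8 ± 6.88, 498 ± 64.5 and 34.7 ± 6.18 in knockdown cells at days 0, 3, 7 and 11 (SD, n = 4 each).

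Knockdown cells therefore had 31.5% of the control level of Aldh1a1 at day 7 (log2 change -1.57 ± 0.08, limma adjusted p 8.67e-10) and 29.9% at day 11 (-1.38 ± 0.16, with an adjusted p of 6.16e-05). The earlier fall, to 46.0% at day 3, had a log2 change of -0.58 ± 0.15 (adjusted p 0.0127) on the deposited scale. By voom on rebuilt reads it was -1.22 (adjusted p 0.0304). With replicate number as a block in the limma fit it was -0.69 and not called (adjusted p 0.0833). No fall was called at day 0 (-0.03 ± 0.20, adjusted p 0.95, 95% interval -0.47 to 0.41). By voom the day 0 change was -0.02 ± 0.58 (adjusted p 0.99), so the interval on the deposited scale is too narrow as a bound. Both hairpins gave the fall: at day 7 it was -1.47 ± 0.08 with shRNA 1 and -1.66 ± 0.08 with shRNA 2 (adjusted p 3.18e-14 and 5.95e-15), at day 11 -1.52 ± 0.17 and -1.23 ± 0.17 (1.40e-06 and 2.48e-05), and at day 3 -0.65 ± 0.17 and -0.51 ± 0.17 (0.00278 and 0.0233). In the same libraries the summed fat cell markers were higher, as given above.

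The pair's balance can be read within a library, where depth cancels. Aldh1a1 took 8.53% ± 2.90 of the pair's reads in control and 2.26% ± 1.34 in knockdown libraries at day 3, 25.9% ± 1.12 and 11.3% ± 1.29 at day 7, and 31.7% ± 2.60 and 4.78% ± 1.24 at day 11 (SD, n = 4 each). On those 3 days no library of one arm reached the range of the other. At day 0 the pair had only 10 to 33 reads per library, and the shares, 17.6% to 77.4% in control and 42.9% to 62.1% in knockdown libraries, overlapped. The sum of the pair in normalized reads was 337 ± 50.8 in control and 580 ± 105 in knockdown cells at day 3, 6103 ± 307 and 4432 ± 447 at day 7, and 364 ± 68.0 and 742 ± 119 at day 11. These shares are a description with no test, since the pair was picked from values of the same libraries.

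**Figure D2:**
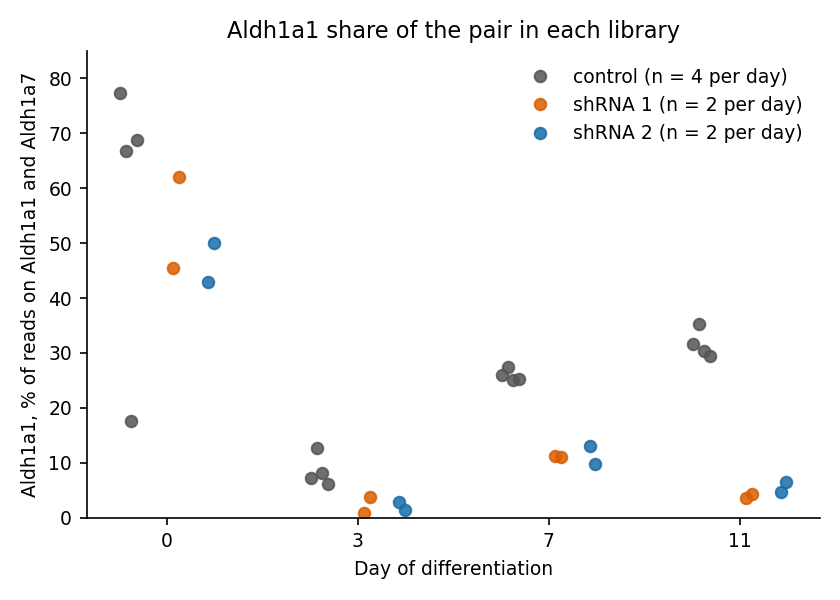
Share of Aldh1a1 (percent, vertical axis from 0) in the reads on Aldh1a1 and Aldh1a7 together, for each library by day of differentiation; grey is control, orange shRNA 1 and blue shRNA 2. At day 11 the control libraries sit between 29.4% and 35.3% and the knockdown libraries between 3.55% and 6.49%.

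Aldh1a3, another retinal dehydrogenase (ENSMUSG00000015134, chr7:66390890-66427517, minus strand), was near the limit of detection. It had 169 reads in all 32 libraries together, 0 to 20 per library, and 6 libraries had none. Control libraries had 6, 2, 3 and 14 reads at day 0, 0, 0, 1 and 2 at day 3, 1, 2, 0 and 4 at day 7, and 13, 14, 12 and 9 at day 11. The 2 shRNA 1 libraries of day 0 had 18 and 20 reads and the 2 shRNA 2 libraries 4 and 2. Knockdown libraries held 44, 7, 3 and 32 reads in all at days 0, 3, 7 and 11, against 25, 3, 7 and 48 in control, and the arms overlapped on every day. Within each arm, every library of day 11 had more than any of day 7 after scaling. The gene did not pass the filter in any comparison, so no test is given.

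Rdh10 (ENSMUSG00000025921, chr1:16105774-16133734, plus strand), the enzyme that makes retinal from retinol, was the member with the highest level before induction and fell as cells differentiated. Control libraries had 1000, 759, 802 and 893 reads at day 0, 301, 333, 386 and 321 at day 3, 191, 163, 230 and 163 at day 7, and 366, 289, 269 and 282 at day 11. In knockdown libraries there were 642, 587, 827 and 754 at day 0, 303, 302, 436 and 395 at day 3, 258, 190, 181 and 217 at day 7, and 223, 138, 193 and 172 at day 11. In normalized reads the arms were apart at days 0 and 11, with knockdown lower, and overlapped at days 3 and 7.

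Control cells had 776 ± 45.6, 354 ± 36.8, 191 ± 24.0 and 271 ± 18.6 normalized reads of Rdh10 at days 0, 3, 7 and 11, and knockdown cells 635 ± 95.8, 383 ± 60.2, 221 ± 30.2 and 193 ± 30.4 (SD, n = 4 each). Rdh10 was lower in knockdown cells at day 11, at 71.2% of control (log2 change -0.44 ± 0.11, limma adjusted p 0.00831), with -0.45 ± 0.12 for shRNA 1 and -0.43 ± 0.12 for shRNA 2 (adjusted p 0.0064 and 0.0118). At day 0 the log2 change of -0.28 ± 0.09 was not called (adjusted p 0.14), but with the hairpins as separate groups the same mean change was (adjusted p 4.30e-04). It was -0.44 ± 0.07 with shRNA 1 (adjusted p 7.16e-06) and -0.11 ± 0.07 with shRNA 2 (0.297). At days 3 and 7 it was 0.10 ± 0.10 (adjusted p 0.514) and 0.18 ± 0.11 (adjusted p 0.188). On those days 1 hairpin each was called higher, shRNA 2 at day 3 (0.28, adjusted p 0.0227, beside -0.08 and 0.548 for shRNA 1) and shRNA 1 at day 7 (0.30, adjusted p 0.0392, beside 0.07 and 0.691 for shRNA 2).

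Crabp2, which carries retinoic acid in the cytosol (ENSMUSG00000004885, chr3:87948666-87953376, plus strand), stayed low on all days. Control libraries had 2 to 18 reads at day 0, 4 to 23 at day 3, 4 to 12 at day 7 and 9 to 19 at day 11, and knockdown libraries 5 to 11, 11 to 21, 3 to 15 and 8 to 14. The arms overlapped on every day. Log2 changes with knockdown were 0.16 (95% interval -0.19 to 0.50) at day 3, 0.15 (-0.16 to 0.45) at day 7 and 0.01 (-0.25 to 0.26) at day 11, with limma adjusted p 0.505, 0.432 and 0.974. It did not reach the filter at day 0.

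Stra6, the retinol uptake receptor (ENSMUSG00000032327, chr9:58063788-58153996, plus strand), was hardly seen. It had 56 reads in all libraries together, 0 to 8 per library, and 16 of 32 libraries had none. All 8 libraries of day 3 had 0 reads, which allows up to 3 reads in each, for counting error only. Control libraries held 14, 0, 8 and 5 reads in all at days 0, 3, 7 and 11, and knockdown libraries 14, 0, 12 and 3. Stra6 did not pass the filter in any comparison. Levels were set side by side between genes per kilobase, with all exon bases of the annotation as the length, and again with the longest principal transcript, a choice made after seeing the data. In control cells at day 7, Aldh1a7 had 2189 ± 142 normalized reads per kilobase by either length. Aldh1a1 had 320 ± 3.14 by all 4937 exon bases and 671 ± 6.58 by its transcript of 2358 bases, so it came second either way but at a level that depends on the length. Rdh10 followed with 46.0 ± 5.76 and 53.3 ± 6.68, then Crabp2 with 5.48 ± 2.97 and 7.78 ± 4.22, while Aldh1a3 and Stra6 were under 1 by both lengths and did not differ beyond their spread. Before induction Rdh10 was highest, with 186 ± 11.0 per kilobase of exon and 216 ± 12.7 per kilobase of transcript. No order is given among the other 5 genes at day 0, since it changes with the length: by all exon bases Aldh1a7 had 3.42 ± 1.99 and Aldh1a1 2.14 ± 1.46, and by transcript 3.42 ± 1.99 and 4.48 ± 3.05.

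Of the 9 genes, 3 passed the filter at day 0 and 4 on each later day, a value of at least 10 (2 to the power of the log2 value) in at least 4 libraries. At day 0 the filter did not sort the genes by their reads. Aldh1a7 passed with 7.06 and Aldh1a1 with 10.6 normalized reads in control, because their log2 values of 4.76 and 4.38 are drawn towards a mean set by the high day 7 libraries, while Crabp2, with 6.45 and a log2 value of 3.20, did not. Nothing is therefore read from the number of members that passed or were called at day 0. With knockdown against control, limma called 0 of 3 at day 0, 1 of them at an unadjusted p under 0.05 and none by voom, beside 3.25% of all genes tested. It called 2 of 4 at day 3 beside 26.7% of all genes, 2 of 4 at day 7 beside 47.6%, and 3 of 4 at day 11 beside 33.0%. For shRNA 1 alone the calls were 1 of 3 at day 0 (34.7% of all genes), 2 of 4 at day 3 (39.4%), 2 of 4 at day 7 (52.0%) and 3 of 4 at day 11 (43.6%). For shRNA 2 they were 0 of 3 at day 0, with 0 at an unadjusted p under 0.05 by limma (17.6% of all genes), 3 of 4 at day 3 (31.4%), 2 of 4 at day 7 (46.0%) and 3 of 4 at day 11 (36.9%). With so large a share of all genes called and so few members tested, these counts do not set the members apart.

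**Figure D3:**
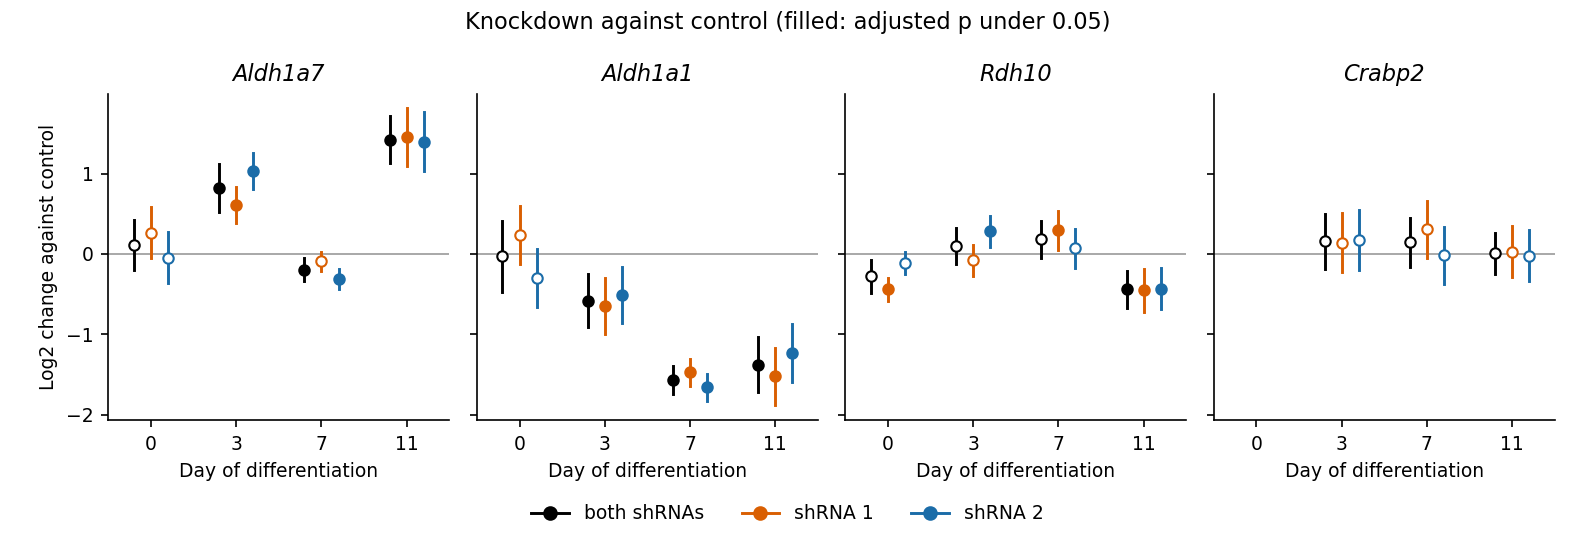
Log2 change against control with its 95% interval (vertical axis) by day, for 4 genes that passed the filter; black is both hairpins together, orange shRNA 1, blue shRNA 2, and filled points have an adjusted p under 0.05. Aldh1a1 is below 0 from day 3 with either hairpin, down to -1.57 at day 7 for both together, while Aldh1a7 is above 0 at days 3 and 11.

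The hairpins differed from each other in some of these genes. At day 0, where 2 of 3 members were called beside 35.0% of all genes, shRNA 2 libraries had more Rdh10 than shRNA 1 libraries (log2 difference 0.33 ± 0.08, limma adjusted p 0.00159) and less Aldh1a1 (-0.54 ± 0.20, adjusted p 0.0391, and -1.51 with adjusted p 0.0727 by voom). The Rdh10 call was lost without shRNA 1 replicate 2 (adjusted p 0.0565), and the Aldh1a1 call without any 1 of the 4 knockdown libraries or control replicate 2 (up to 0.169). At day 3, with 2 of 4 called beside 19.6%, Aldh1a7 was higher with shRNA 2 (0.42 ± 0.12, adjusted p 0.014), as was Rdh10 (0.35 ± 0.11, adjusted p 0.0169). Both were lost without shRNA 1 replicate 2 or shRNA 2 replicate 2, and Rdh10 without shRNA 2 replicate 1 too (adjusted p up to 0.137 for each gene). At day 7, with 1 of 4 called beside 16.4%, Aldh1a7 was lower with shRNA 2 (-0.22 ± 0.07, adjusted p 0.0246), a call lost without shRNA 1 replicate 2 or shRNA 2 replicate 1 (up to 0.33). Without a filter, or without trend and robust fitting, the calls at days 3 and 7 and the Aldh1a1 call at day 0 were also lost (adjusted p 0.0579 to 0.157), and with equal totals the call at day 7 (0.0555). At day 11 none of 4 was called, and 0 had an unadjusted p under 0.05 or a call by voom, beside 22.0% of all genes. The interval for Aldh1a1 at day 7, which was not called, ran from -0.38 to 0.01, and at day 11 from -0.12 to 0.70. Without shRNA 2 replicate 1 the day 7 difference became a call (-0.36, adjusted p 0.0215).

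The time course was tested in the 16 knockdown libraries, which the choice of Aldh1a7 did not use. Against day 0, Aldh1a7 rose by 4.23 ± 0.09 on the log2 scale at day 3, 6.92 ± 0.09 at day 7 and 4.54 ± 0.09 at day 11 (limma adjusted p 3.36e-21, 3.75e-25 and 1.59e-21), and from day 7 to day 11 it fell by 2.39 ± 0.09 (7.79e-16). Aldh1a1 was not called at day 3 (0.22 ± 0.13, adjusted p 0.125), except without shRNA 1 replicate 1 of day 3 (0.37, adjusted p 0.0135). It rose by 4.32 ± 0.13 at day 7 (adjusted p 1.92e-20), was 1.01 ± 0.13 above day 0 at day 11 (1.40e-07), and fell by 3.31 ± 0.13 from day 7 to day 11 (3.12e-17). Voom on rebuilt reads gave 5.96 for Aldh1a7 at day 3 and 1.94 for Aldh1a1 at day 11. In normalized reads, knockdown cells at day 7 had 414 times their day 0 level of Aldh1a7 and 50.2 times that of Aldh1a1. The 2 genes thus differed in timing within knockdown cells: from day 0 to day 3 Aldh1a7 went from 9.51 to 567 normalized reads and Aldh1a1 from 9.93 to 12.8.

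Rdh10 fell in the knockdown libraries, with log2 changes against day 0 of -0.67 ± 0.09, -1.38 ± 0.09 and -1.55 ± 0.09 on the 3 later days (limma adjusted p 2.53e-07, 3.03e-13 and 3.38e-14). From day 7 to day 11 its change of -0.17 ± 0.09 was not called (adjusted p 0.104), although it was without shRNA 1 replicate 1 of day 11 (-0.29, adjusted p 0.00579). Without shRNA 1 replicate 2 of day 11 the change was -0.06 (adjusted p 0.606). In control cells, described without a test, the mean rose by 0.45 over the same interval. Crabp2 was 0.37 ± 0.13 above day 0 at day 3 (adjusted p 0.0101), and 1.22 by voom. That call was lost with libraries rescaled to equal totals (0.22, adjusted p 0.121), which moved the median of all genes by -0.16, -0.14 and -0.10 at days 3, 7 and 11 against day 0, and without shRNA 1 replicate 2 of day 0, shRNA 1 replicate 1 of day 3 or shRNA 2 replicate 2 of day 3 (up to 0.0725). Called members were 3 of 4 at day 3 against day 0 (78.1% of all genes), 3 of 4 at day 7 (76.3%), 3 of 4 at day 11 (73.9%), 3 of 4 from day 3 to day 7 (75.4%) and 2 of 4 from day 7 to day 11 (60.9%), shares near or below those of all genes.

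Whether the knockdown effect itself changed from day 0 was tested in 1 fit of all 32 libraries. This difference contains the change over time in control libraries that chose Aldh1a7, so for that gene it is a description with no test: the effect was higher than at day 0 by 0.71 on the log2 scale at day 3 and by 1.32 at day 11, and by 0.46 and 1.09 by voom on rebuilt reads. For Aldh1a7 at day 7 the difference was -0.30 on the deposited scale. Aldh1a7 had 5 to 18 reads per library at day 0, and Aldh1a1 had 3 to 24. For Aldh1a1 the effect was lower than at day 0 by 1.54 ± 0.24 at day 7 (limma adjusted p 7.42e-06) and by 1.35 ± 0.24 at day 11 (7.17e-05). Its difference at day 3 was not called (-0.55, adjusted p 0.182, and -1.20 with adjusted p 0.369 by voom). For Rdh10 the effect at day 7 was higher by 0.46 ± 0.16 (adjusted p 0.0239), which was lost without shRNA 1 replicate 2 or control replicate 1 of day 0, or shRNA 1 replicate 1 or control replicate 2 of day 7 (up to 0.0678). Both tests use the same control libraries as the change that chose the group. Of all genes, 6.57%, 29.9% and 23.2% were called at days 3, 7 and 11, and the members past the threshold, Aldh1a7 among them, were 1, 2 and 2 of 4, from which nothing is read.

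Other genes of the pathway were taken from a list of 63, of which 58 have a row in the table. With knockdown against control, limma called 6 of 43 tested at day 0, 12 of 44 at day 3, 32 of 48 at day 7 and 25 of 45 at day 11, which is 14.0%, 27.3%, 66.7% and 55.6%, beside 3.25%, 26.7%, 47.6% and 33.0% of all genes. At day 3 the list was near the share of all genes. Of these 1, 9, 25 and 18 were higher and 5, 3, 7 and 7 lower. Their median log2 change was -0.05, 0.06, 0.17 and 0.14, where the median of all genes was -0.01, 0.00, 0.01 and -0.01. The list was drawn up with earlier results known.

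Among genes of storage, binding and transport, 4 of 5 tested were called at day 3 (80.0%), 5 of 6 at day 7 (83.3%) and 4 of 5 at day 11 (80.0%), beside 26.7%, 47.6% and 33.0% of all genes. Lipe, the hormone-sensitive lipase that also splits retinyl esters, had 2757 ± 85.6 normalized reads in control and 12139 ± 1244 in knockdown cells at day 7 (log2 change 2.06 ± 0.06, limma adjusted p 6.94e-12). Dgat1, an acyltransferase that can esterify retinol, was higher by 1.51 ± 0.07 at day 7 (3.03e-10), and Ces1d, a carboxylesterase, by 1.28 ± 0.13 at day 7 and 1.73 ± 0.12 at day 11 (7.28e-07 and 2.13e-06). At day 0, 1 of 5 was called, lower with knockdown, beside 3.25% of all genes. Calls were 3 higher and 1 lower at day 3, 4 and 1 at day 7, and 4 and 0 at day 11. Rbp2, Rbp7 and Stra6l, of the same group, had means of at most 20.2, 0.511 and 1.83 normalized reads in any arm and day. The summed fat cell markers were also higher with knockdown on those 3 days, and their part was not tested. Fabp5, the fatty acid binding protein that can pass retinoic acid to PPARD, rose from 3321 ± 207 to 12721 ± 2859 normalized reads at day 7 (1.85 ± 0.15, adjusted p 1.57e-05).

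Enzymes between retinol and retinal moved in both directions, with 3 of 13 called at day 0 (23.1%; 1 higher and 2 lower), 3 of 13 at day 3 (23.1%), 6 of 14 at day 7 (42.9%) and 7 of 13 at day 11 (53.8%), beside 3.25%, 26.7%, 47.6% and 33.0% of all genes. Dhrs3, which returns retinal to retinol, had 182 ± 15.6 normalized reads in control and 685 ± 184 in knockdown cells at day 7 (log2 change 1.67 ± 0.15, limma adjusted p 9.47e-07) and 98.9 ± 9.91 and 356 ± 33.8 at day 11 (1.59 ± 0.10, adjusted p 8.38e-07). Adh7, an alcohol dehydrogenase active on retinol, fell at day 0 by 0.41, at day 7 by 1.31 and at day 11 by 0.92 (adjusted p 0.00207, 1.87e-08 and 1.52e-05), with 1570 ± 139 normalized reads in control and 603 ± 84.2 in knockdown cells at day 7. Retsat, the retinol saturase, was higher by 0.30 ± 0.05 at day 7 and 0.37 ± 0.05 at day 11 (1.43e-04 and 1.76e-04). Bco1, which splits beta-carotene into retinal, was higher by 1.25 ± 0.29 at day 7 (0.00541) with 12.9 ± 10.7 normalized reads in control and 71.5 ± 40.2 in knockdown cells, and by 2.53 by voom.

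The breakdown enzyme Cyp26b1 was the only one of the 3 CYP26 genes to pass the filter. Its normalized reads were 5397 ± 213 in control and 4254 ± 481 in knockdown cells at day 7 (log2 change -0.34 ± 0.07, limma adjusted p 6.82e-04), and 1848 ± 132 and 2899 ± 464 at day 11 (0.61 ± 0.10, adjusted p 8.39e-04). Cyp26a1 was under the filter, with 6.76 ± 4.55 in control and 0.524 ± 1.05 in knockdown cells at day 7, and 16.2 ± 1.70 and 5.25 ± 4.89 at day 11. Of the receptors, Rara was higher at day 7 (0.21 ± 0.06, adjusted p 0.00559) and day 11 (0.88 ± 0.06, 1.56e-06), Ppard by 0.30 ± 0.05 and 0.40 ± 0.05 (1.11e-04 and 2.24e-04), and Rarg was lower at day 7 (-0.28 ± 0.05, 3.37e-04). Rarb, itself induced by retinoic acid, had at most 8.11 ± 5.26 normalized reads in any group of 4.

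Aldehyde dehydrogenases outside the Aldh1a group included the largest called log2 change on the list, among genes that passed the filter. Aldh1l1, a folate enzyme, had 42.1 ± 13.0 normalized reads in control and 444 ± 163 in knockdown cells at day 7 (log2 change 2.77 ± 0.23, limma adjusted p 1.48e-06), and was higher by 1.83 ± 0.18 at day 11 (1.72e-05), or by 3.09 by voom. Aldh6a1, of valine breakdown, was higher by 1.00 ± 0.06 and 1.07 ± 0.10 on those days (7.42e-09 and 2.19e-05). Aldh3a1 was lower at day 0 by 0.93 ± 0.11 (0.00211). Of 13 such genes tested, 8 were higher and 2 lower at day 7, and 4 higher and 3 lower at day 11, so 76.9% and 53.8% were called beside 47.6% and 33.0% of all genes. Among genes known to respond to retinoic acid, 5 of 9 tested were higher and 2 lower at day 7, and 6 higher and 0 lower at day 11, which is 77.8% and 66.7% called beside the same 47.6% and 33.0%. At day 3 they had 2 of 8 called (25.0%) and the other aldehyde dehydrogenases 3 of 13 (23.1%), beside 26.7% of all genes. At day 0 limma called 0 of 8 responsive genes (3 at an unadjusted p under 0.05, 1 by voom) and 2 of 13 dehydrogenases (15.4%), beside 3.25%. Cyp26a1, Rarb and Rarres1, also on the responsive list, were under the filter and outside these counts. Cyp26a1 at day 11 had 14.0 to 17.9 normalized reads in control and 0 to 10.2 in knockdown libraries. Rarb and Rarres1 had means of at most 8.11 and 1.37 in any arm and day. Dhrs3 and Cyp26b1 are counted in groups above too. Tgm2, tissue transglutaminase, was higher at day 7 (1.49 ± 0.14, adjusted p 3.86e-07), and Rarres2, the adipokine chemerin, at days 7 and 11 (0.92 ± 0.06 and 1.05 ± 0.10, adjusted p 4.51e-09 and 2.66e-05), as was Nrip1 (0.60 ± 0.05 and 0.80 ± 0.09, adjusted p 1.85e-07 and 3.66e-05). Pdk4, of the same list, was lower at day 7 (-0.32 ± 0.06, adjusted p 2.59e-04). The summed fat cell markers moved with these genes, and their part was not tested.

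**Figure D4:**
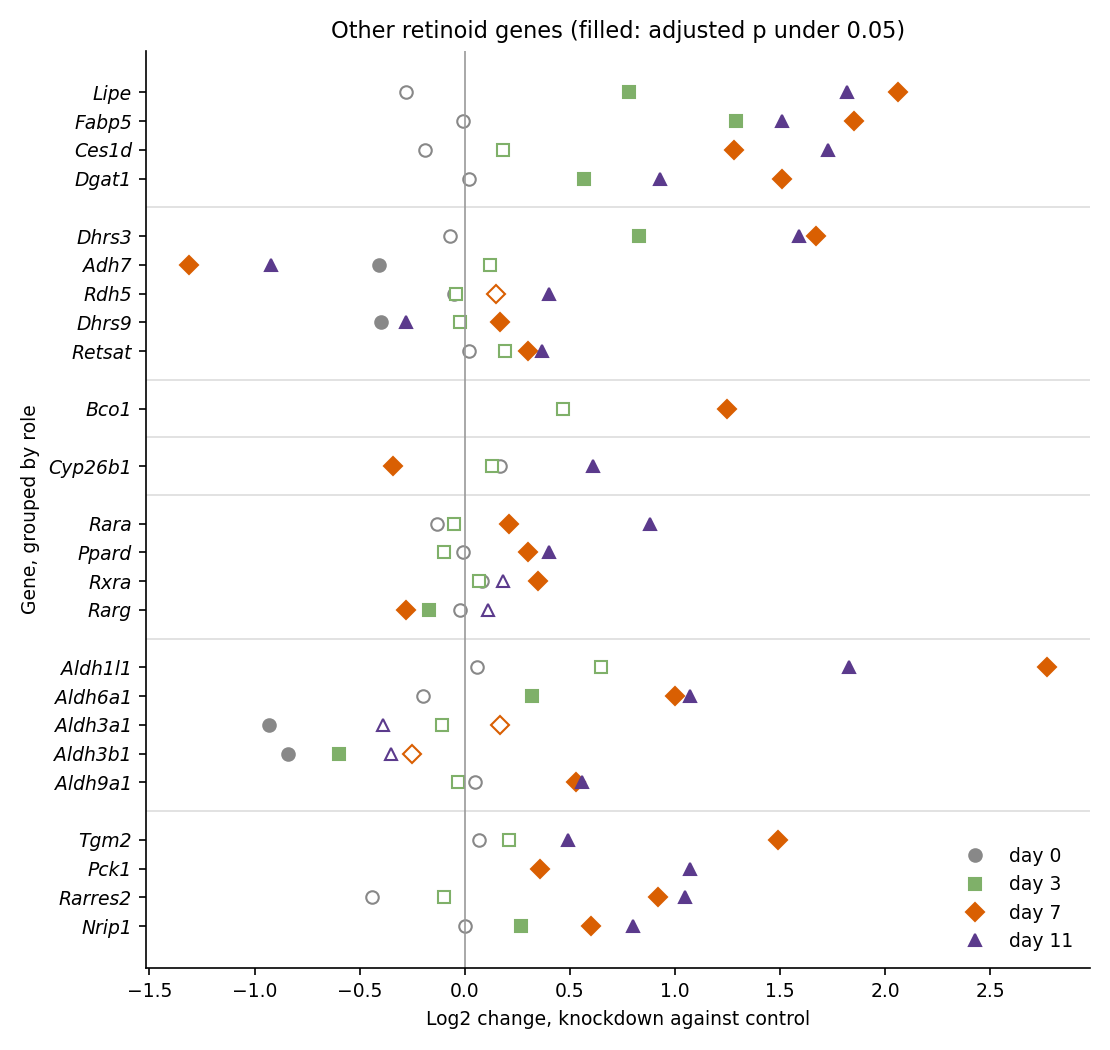
Log2 change with knockdown against control (horizontal axis) for called genes with large changes in each role group of the pathway list; marker shape and colour give the day, and filled markers have an adjusted p under 0.05. Lipe at 2.06, Fabp5 at 1.85, Dhrs3 at 1.67 and Aldh1l1 at 2.77 lie far to the right at day 7, and Adh7 at -1.31 to the left.

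Across the 12 group means, the pattern of Aldh1a7 was most like that of Slc45a3 (Pearson r 0.977), Echdc2 (0.971), Chchd6, Tmem65 and Snx1 (0.969 each), among 12056 named genes. The likeness is of shape and not of size. These 5 genes had log2 ranges of 2.21, 2.32, 1.49, 1.04 and 0.71, while Aldh1a7 rose by 7.23 from day 0 to day 7 in control cells. The closest genes to Aldh1a1 were Sult5a1 (0.977) and Cnga2 (0.963), to Rdh10 Epm2aip1 (0.978) and Hic1 (0.975), and to Crabp2, with its few reads, Eprs (0.929) and Psmd12 (0.928). Between members, r was 0.79 for Aldh1a1 and Aldh1a7, -0.87 for Aldh1a7 and Rdh10, and -0.68 for Aldh1a1 and Rdh10. These values describe likeness over groups that share libraries and days, with no test.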

How the data were processed

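RNA sequencing libraries were made with an Illumina TruSeq kit, per the labels' protocols. The submitters' processing notes name TopHat2 2.1.0, Bowtie2 2.2.6, SAMtools 1.3.1 and HTSeq 0.6.1. Genome build, annotation and strand use in counting are not given in the sources used here. The authors deposited 1 table of log2 values in the form of a regularized log, as the values show. Whole reads were rebuilt by inverting that form. Of all values, 98.3% came within 0.1 of a whole read (24 of 32 libraries for Aldh1a7, all 32 for the other members in the table), and 99.99% of simulated counts of 2000 genes were rebuilt exactly. Intervals and floors cover counting error only.

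Groups came from sample titles. A gene was tested where its value, taken out of log2, reached 10 in 4 or more libraries of the comparison. limma 3.58.1 (R 4.3.3) with trend and robust fitting was applied to the deposited values, with p-values adjusted by Benjamini-Hochberg over all genes tested, and a gene was called at an adjusted p under 0.05. The fits were checked on simulated reads. All 32 pairs of replicate libraries differed beyond counting noise (chi-square per degree of freedom 3.00 to 11.8), so no pair agreed within counting noise. Separate libraries of 1 culture would pass this check too.

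Members and lists were chosen with earlier results of these data known. Named genes are the members, Zbtb9, up to 5 called genes with the largest changes in each list group, and the genes most correlated with each member over 12 group means. Pdk4, Cyp26a1 and Rarb, outside that rule, were chosen after their values were seen. Alternatives were other filters, scalings, pseudocounts and fits, rebuilt reads, and leaving out each library. One gene that this rule names is not reported here, and counts over the list include it.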

Additional observations from a re-analysis of the deposited data

Results flagged for a closer look

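Values of the 6 members were examined for a sample apart from its group in 48 groups of 4 libraries, of which chance alone flags about 1 in 20. Control replicate 2 of day 3 stood above the other controls in Aldh1a1, at a log2 value of 5.46, and control replicate 2 of day 11 in Stra6, at 0.80, where it held 5 reads and the other 3 libraries none.

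The effect of knockdown differed from that at day 0 by an interaction test for Aldh1a1 at day 7 (-1.54) and day 11 (-1.35), and for Rdh10 at day 7 (0.46), all as log2 differences. These differences use the control libraries of the change over time that chose the group. The hairpins differed from each other, shRNA 2 minus shRNA 1, in Rdh10 at day 0 (0.33) and day 3 (0.35), in Aldh1a1 at day 0 (-0.54), and in Aldh1a7 at day 3 (0.42) and day 7 (-0.22).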

How the results depend on the processing

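The falls of Aldh1a1 at days 7 and 11, the rises of Aldh1a7 at days 3 and 11 and the fall of Rdh10 at day 11 kept direction and call under every alternative run, with log2 changes from -1.68 to -1.48, -1.72 to -1.28, 0.73 to 0.92, 1.28 to 1.52 and -0.51 to -0.36. Low depth limits Crabp2, Aldh1a3, Stra6 and every member at day 0 but Rdh10. The cause of the changes below was not tested, except that fewer genes pass a stricter filter.

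Members called with knockdown against control became 1 at day 0 with the hairpins as separate groups, and 1 at day 3 with the stricter filter. At day 7 they became 1 with no filter, with no trend or robust fitting and in 1 fit of all libraries, and 1 to 2 with single libraries left out. Between hairpins at day 0 they became 1 by voom and with no trend, and 0 to 2 with libraries left out. At day 3 they became 0 with no filter and with no trend (0 to 2 with libraries left out), and at day 7 they became 0 with no filter, equal totals or no trend (0 to 1). In knockdown libraries 5 were called at day 3 against day 0 with no filter, Aldh1a3 and Stra6 (both lower) among them. For the difference of the effect, voom gave 0 at day 3 and 1 at day 11, and leaving out libraries gave 0 to 1 at day 3 and 1 to 2 at day 7.

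The labels do not say whether replicate numbers pair the samples. Deviations of same-numbered libraries from their group means correlated at -0.01 to 0.21 between arms of 1 day. Correlations this low cannot show that there was no pairing. With the replicate block, members called became 1 at day 3 and 1 at day 7 against control, where Aldh1a1 had -0.69 at day 3 (adjusted p 0.0833) and Aldh1a7 -0.13 at day 7 (0.35). The Zbtb9 call at day 7 (-0.33, adjusted p 0.119) and 18 of 55 calls of named pathway genes were lost too. Genes called in all fell from 430 to 0, 3506 to 845, 6328 to 4112 and 4382 to 1652 at days 0, 3, 7 and 11, while the difference at day 3 went from 892 to 1524. The day 0 calls of Adh7 and Aldh3a1 were thus among those lost.

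Signs that turned were of values not called. Crabp2 at day 11 became -0.02 with equal totals and -0.06 with the replicate block (-0.04 to 0.05 with libraries left out), and at day 7 against day 0 in knockdown libraries -0.01 with equal totals. With libraries left out, Aldh1a1 at day 0 ran from -0.17 to 0.12. Between hairpins, Aldh1a1 ran from -0.16 to 0.44 and Crabp2 from -0.15 to 0.22 at day 3, and at day 11 Aldh1a7 ran from -0.27 to 0.15, Crabp2 from -0.17 to 0.07 and Rdh10 from -0.20 to 0.26. Crabp2 ran from -0.02 to 0.14 from day 7 to day 11 in knockdown libraries, and for the difference of the effect from -0.03 to 0.21, -0.04 to 0.19 and -0.18 to 0.01 at days 3, 7 and 11.

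Genes called in all at day 0 against control were 430, and 261 with no trend, 3340 with separate hairpins and 111 to 250 without 1 of 5 libraries. At day 3 separate hairpins gave 5311 for 3506. For shRNA 2 against control at day 0 no trend gave 1206 for 2323, and leaving out either shRNA 2 library 946 and 1281. Between hairpins, no trend gave 1454 for 2572 at day 3 and 1035 for 2183 at day 7, no filter 1710 at day 3, and leaving out single libraries as few as 1633, 1003 and 1479 (for 2916) at days 3, 7 and 11.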
